A study of Mus musculus with 104 samples.

Results

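Chemokines and their receptors were followed through the day in mouse muscle stem cells of 2 ages and 2 diets. The members were all genes whose single annotated symbol starts with Ccl, Cxcl, Cx3cl, Xcl, Ccr, Cxcr, Cx3cr or Ackr and a digit. They came to 51 of the 17097 genes with 1 symbol on the array, 34 of them ligands and 17 receptors. For each gene the probe set with the highest mean over all arrays was read. Of the 51 members, 26 had a mean at or above 4.50 on the log2 scale, the 40th percentile of all probe sets, and were tested. The other 25 lay below this filter, are called dim here, and were tested only in an alternative fit without the filter.

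The series measured RNA of satellite cells, the stem cells of skeletal muscle, to ask how age and food intake change gene expression over the day. Every arm used mice of C57B6/J background with a Per1-Venus BAC transgene, a fluorescent reporter of the clock gene Per1. Adult mice were 19 to 29 weeks old and aged mice 55 to 69 weeks old when the adaptation to the diets began. Control mice ate freely. Mice under calorie restriction (CR) had 10% less food in each of 3 weeks of adaptation and then 30% less than the control intake over an experiment of 25 weeks.

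Under control diet there were 22 arrays of adult and 24 of aged mice, and under CR 32 of adult and 26 of aged mice. They were collected at 6 times, written T0 to T20 in steps of 4 h, with 4 to 6 arrays for each arm and time except adult control T20, which had 1. The design text gives 4 mice for each time and diet, and says that the mice killed on a day all belonged to 1 time, so day and time cannot be told apart. The age tag of the 22 adult control arrays is 83 to 97 weeks, that of the aged mice, although their titles call them adult, while adult CR arrays are tagged 47 to 57 weeks. The titles were followed, and each result that rests on the adult control arm depends on that reading. The titles call the arrays biological replicates, and the sources used here do not describe the gate by which the cells were sorted.

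Chemokines are small secreted or membrane-held proteins that steer migrating cells by binding receptors coupled to G proteins. Inflammatory chemokines are induced by cytokines and tissue damage and recruit monocytes, neutrophils and effector lymphocytes, while homeostatic chemokines guide cells through resting tissue. Atypical receptors bind chemokines without G protein signalling and remove them. In muscle, chemokines are best known for drawing monocytes and neutrophils into injured tissue, and many of the receptors sit on those leukocytes.

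Values are log2 intensities after RMA, a procedure that corrects background, normalizes the arrays and summarises each probe set, so a difference of 1 is a doubling. The brightness of a probe set depends on its probes and is not set against that of another gene. The cells carried the markers of their label: all 11 measured muscle stem cell markers passed the filter, with Fgfr4 at 11.08 and Myod1 at 10.56. Of 15 macrophage markers 6 passed, the brightest being Cd68 (7.91), Mpeg1 (6.30) and Csf1r (5.13). Adgre1 (4.07), Lyz2 (3.91) and Ptprc (3.30), which define macrophages or all leukocytes and are named for that reason, did not. Neutrophil markers passed for 3 of 7 genes and lymphocyte markers for 5 of 9, with Cd79a (7.501) the brightest. Markers of fibroadipogenic progenitors (9 of 11), pericytes and smooth muscle (7 of 7) and Schwann cells (7 of 7) were mostly readable, as were endothelial (7 of 10) and myofibre markers (7 of 8). The brightest included Gsn (10.86) and Dpt (10.77) of the fibroadipogenic list and Myh11 (11.04) and Acta2 (10.77) of the pericyte list. Pmp22 (10.83) and Mbp (10.38) led the Schwann list. The samples thus also gave high readings for markers of other cell types. In these bulk samples, fewer cells of a type and less RNA per cell cannot be told apart.

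The readable members were ligands far more often than receptors: 22 of 34 ligands passed the filter and 4 of 17 receptors did. All 9 homeostatic ligands were readable. They were Ccl19 (mean over all arrays 9.53) and Ccl21b (8.00), which draw lymphocytes and dendritic cells into lymphoid tissue, Ccl27a (9.59) and Ccl28 (6.60), the skin and mucosal ligands of Ccr10, Ccl25 (4.79), the thymic and gut ligand of Ccr9, Cxcl12 (6.57), which holds stem cells in their niches, Cxcl13 (6.89), the attractant of B cells, Cxcl14 (7.06), a ligand of resting epithelia and muscle, and Cxcl17 (4.65), a mucosal chemokine. Of 15 inflammatory CC ligands 8 were readable, namely the monocyte attractants Ccl2 (7.81) and Ccl7 (5.25), the Ccr4 ligands Ccl17 (6.14) and Ccl22 (4.95), the eosinophil attractant Ccl24 (5.37), Ccl1 (4.88), Ccl9 (4.73) and Ccl20 (4.61). Of 4 neutrophil-attracting CXC ligands, Cxcl1 (7.85) and Cxcl15 (4.74) were readable, and of 3 interferon-induced ones only Cxcl10 (7.19). The membrane-bound ligands Cx3cl1 (8.77) and Cxcl16 (6.57) were both readable.

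Among the receptors, Ccr9 (6.05), Ccr10 (5.22), the monocyte receptor Ccr2 (4.66) and the atypical receptor Ackr3 (5.43), which scavenges Cxcl12, passed the filter. Ccr2 passed by its brightest probe set alone, and its others had means of 3.74, 3.52 and 3.22. The other probe sets of Ccr9 had means of 5.01, 4.11 and 3.66. The 25 dim members were the ligands Ccl3, Ccl4, Ccl5, Ccl6, Ccl8, Ccl11, Ccl12, Cxcl2, Cxcl5, Cxcl9, Cxcl11 and Xcl1 and the receptors Ccr1, Ccr1l1, Ccr3, Ccr4, Ccr6, Ccr8, Cx3cr1, Cxcr2, Cxcr3, Cxcr5, Cxcr6, Ackr2 and Ackr4. The receptors that carry the signals of Cxcl1 (Cxcr2, 3.67), Cxcl10 (Cxcr3, 4.01), Cxcl13 (Cxcr5, 4.07), Cx3cl1 (Cx3cr1, 4.27) and Cxcl16 (Cxcr6, 3.78) were thus among the dim members, although their ligands were readable. The members on either side of the filter were Ccl20 at 4.61 and Cxcl17 at 4.65 just above it, and Ackr2 at 4.42 and Ccr6 at 4.34 just below it.

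The start regions of 4 of the members called in a level or rhythm test are shown, and no such result rests on the sequences. The regions hold the 250 bases before and 50 after the transcription start in RefSeq (GRCm38.p6), 5′ to 3′ on the gene's strand. They are Cxcl1 at chr5:90890995-90891294 on the plus strand, Cxcl10 at chr5:92348840-92349139 on the minus strand, Cxcl13 at chr5:95956689-95956988 on the plus strand and Cxcl14 at chr13:56296502-56296801 on the minus strand. Capitals mark matches to the kappaB consensus, the site of the inflammatory factor NF-kB.
Cxcl1: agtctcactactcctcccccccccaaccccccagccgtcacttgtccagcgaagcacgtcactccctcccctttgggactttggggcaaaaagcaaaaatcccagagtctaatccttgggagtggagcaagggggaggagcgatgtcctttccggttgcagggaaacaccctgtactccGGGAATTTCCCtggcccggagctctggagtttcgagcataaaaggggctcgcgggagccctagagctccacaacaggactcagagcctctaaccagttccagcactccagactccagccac
Cxcl10: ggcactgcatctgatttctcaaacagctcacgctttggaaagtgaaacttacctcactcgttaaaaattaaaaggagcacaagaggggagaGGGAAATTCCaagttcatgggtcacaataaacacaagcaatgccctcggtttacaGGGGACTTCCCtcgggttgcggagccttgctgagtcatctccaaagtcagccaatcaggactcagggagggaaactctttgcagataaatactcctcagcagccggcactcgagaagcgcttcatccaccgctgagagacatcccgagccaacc
Cxcl13: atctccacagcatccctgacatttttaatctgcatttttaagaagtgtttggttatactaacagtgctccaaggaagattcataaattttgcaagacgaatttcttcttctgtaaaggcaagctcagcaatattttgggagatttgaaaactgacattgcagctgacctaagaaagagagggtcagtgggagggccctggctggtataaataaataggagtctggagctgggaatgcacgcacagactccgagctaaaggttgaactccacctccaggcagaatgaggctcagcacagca
Cxcl14: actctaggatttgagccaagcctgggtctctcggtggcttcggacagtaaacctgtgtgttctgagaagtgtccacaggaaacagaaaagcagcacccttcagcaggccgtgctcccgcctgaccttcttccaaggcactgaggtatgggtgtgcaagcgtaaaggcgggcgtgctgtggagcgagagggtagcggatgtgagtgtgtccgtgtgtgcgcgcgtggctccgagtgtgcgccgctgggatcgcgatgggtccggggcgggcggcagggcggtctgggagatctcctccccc

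Of the 26 readable members, 20 had a start region in the table, with 23 windows in all, and 2 motifs were searched on both strands. The kappaB consensus, whose matches on the 2 strands can overlap, was found in 6 of the 23 windows (Ccl1, Ccl9, Ccl20, Ccl27a, Cxcl1 and Cxcl10), against 8.46% of all 32851 windows of the same length. In Cxcl1 the overlapping matches start at positions -71 and -70 from the transcription start, and the first match in Cxcl10 starts at -159. The clock E-box CACGTG was in 0 of the 23 windows, against 7.15% of all. A match is a description of the letters and not a binding site.

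**Figure D1:**
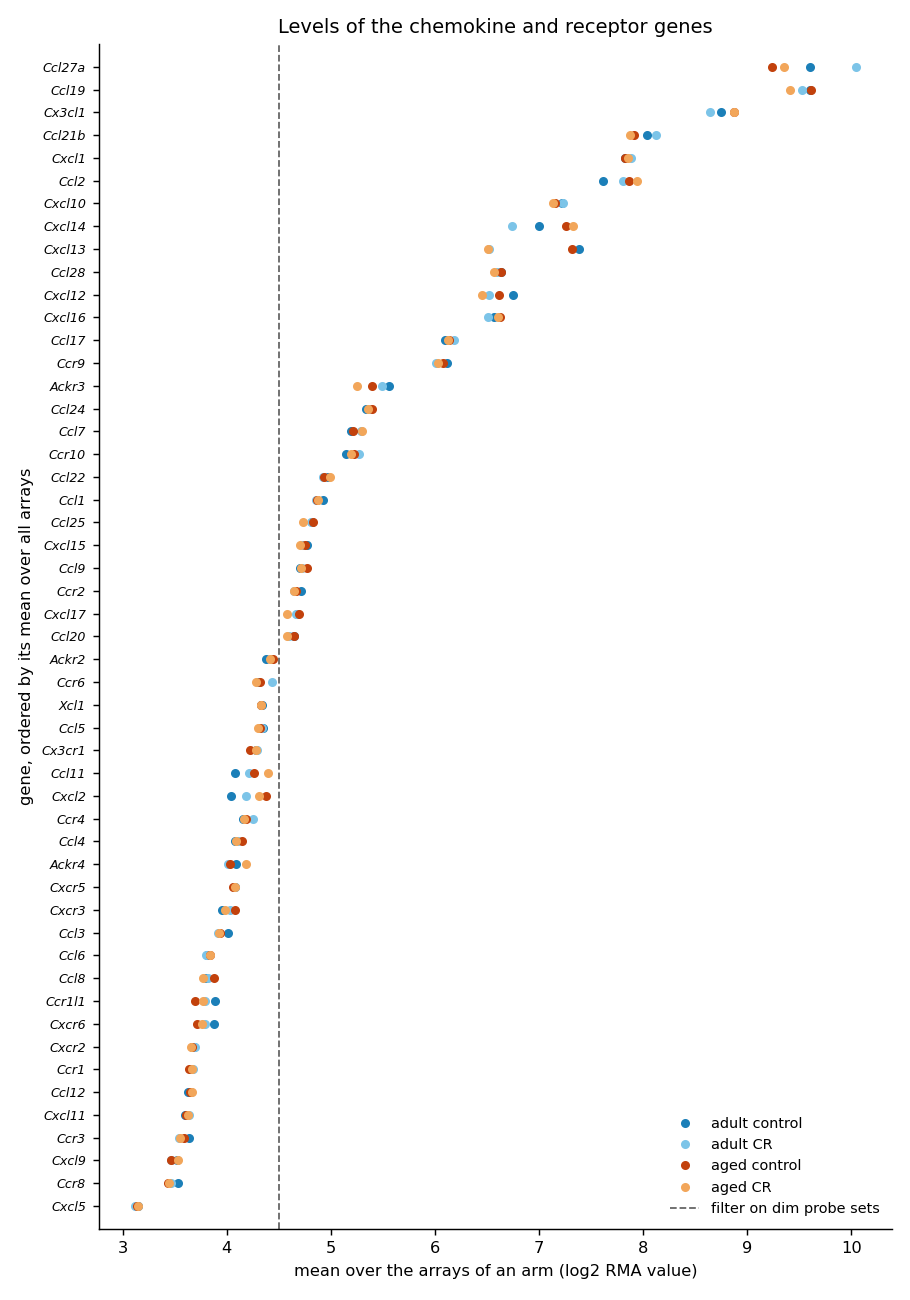
Mean log2 RMA value of each of the 51 members in each arm (x axis), with genes ordered by their mean over all arrays (y axis); points are arm means and the dashed line is the filter at 4.50. The 26 readable members lie right of the line, and the arms separate most for Cxcl13, Cxcl14 and Ccl27a.

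Levels were compared between arms as differences of day means, fitted in limma together with a 24 h cosine for each arm, and p-values were adjusted over all 11853 genes tested. The 4 comparisons share arms, so they are not independent of each other. Calorie restriction lowered 1 member, Cxcl13, at both ages. Age under CR changed 2 members, lowering the reading of Ccl27a and raising Cxcl14. Age under the control diet changed none.

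Cxcl13, which draws B cells through Cxcr5, had its lowest, median and highest values at 6.36, 7.35 and 8.70 in the adult control arm and at 5.08, 6.56 and 7.38 under CR at that age. In the aged arms they were 6.13, 7.22 and 9.28 under control diet and 5.43, 6.52 and 7.40 under CR. The arms overlapped, but 31 of 32 adult CR arrays lay below the median of adult control and 25 of 26 aged CR arrays below that of aged control. The difference of day means was -0.85 ± 0.149 (SE, n = 32 and 22) in adults, a 1.81-fold lower level (limma adjusted p = 0.000431). In aged mice it was -0.81 ± 0.149 (n = 26 and 24), 1.75-fold lower (limma adjusted p = 0.000762). The mean under CR was lower at all 6 times at both ages. The difference of the 2 diet effects was 0.04, with a 95% interval from -0.37 to 0.45, so an effect of like size at both ages and a moderate difference between them are both within the error.

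Cxcl13 was the only one of the 26 members called in either diet comparison, a share of 3.85% against 1.05% of all genes tested in adults and 2.29% in aged mice. Of all genes, 0.548% were higher and 0.498% lower in adults, and 1.21% higher and 1.09% lower in aged mice. The median difference over the 26 members was -0.04 in adults and -0.03 in aged mice, beside 0.01 and -0.00 over all genes. A second, dim probe set of Cxcl13 (mean 4.17) gave -0.23 ± 0.0562 in adults (limma adjusted p = 0.0229) and -0.11 ± 0.0563 in aged mice (limma adjusted p = 0.315). Both probe sets were lower in both CR arms.

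Markers of fibroadipogenic progenitors, the mesenchymal cells of muscle, moved in the same direction as Cxcl13. Of 9 readable markers, Col3a1, Dpt and Gsn were lower under CR in adults (median of the list -0.18) and Col3a1 in aged mice (median -0.14); these and the further list genes below were named after their values were seen. The mean of the list ran from 8.49 to 9.25 in adult control arrays, 8.40 to 9.07 in adult CR, 8.34 to 9.17 in aged control and 8.41 to 8.90 in aged CR. Within groups of the same arm and time, Cxcl13 and the list had a Pearson r of 0.136 and a Spearman rho of 0.112 over 103 arrays (permutation adjusted p = 0.5 and 0.684), with r at 0.140 without the 2 arrays farthest from the median of the list. Single genes of other lists were also called under CR in aged mice. Kcnj8 of the pericyte list (-0.77 ± 0.153, limma adjusted p = 0.00121), Esam of the endothelial list (-0.37 ± 0.0963, 0.0192) and Ncmap of the Schwann list (-0.37 ± 0.104, 0.0353) were lower. Cd68 of the macrophage list (0.38 ± 0.092, limma adjusted p = 0.0107) and Cd79a, a B cell gene, of the lymphocyte list (0.30 ± 0.0814, 0.0239) were higher. Each of these 5 genes was the only 1 of its list called there. The list medians in that comparison were 0.13 (pericyte), -0.05 (endothelial), -0.15 (Schwann), 0.02 (macrophage) and 0.06 (lymphocyte). The pericyte median thus had the opposite sign to Kcnj8, and these single genes do not stand for their lists. The part of these lists in the Cxcl13 difference was not tested.

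The same diet comparisons gave no call for the other homeostatic ligands. Cxcl12, the niche chemokine, differed by -0.21 ± 0.0931 in adults (limma adjusted p = 0.287) and -0.16 ± 0.0933 in aged mice (limma adjusted p = 0.397). Ccl19 differed by -0.21 ± 0.0785 in aged mice (limma adjusted p = 0.151). Intervals for the other members are drawn in the plot of level differences, and none of the 4 readable receptors was called. Ccl2 differed by 0.22 ± 0.105 in adults (limma adjusted p = 0.344) and 0.08 ± 0.105 in aged mice (limma adjusted p = 0.782).

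**Figure D2:**
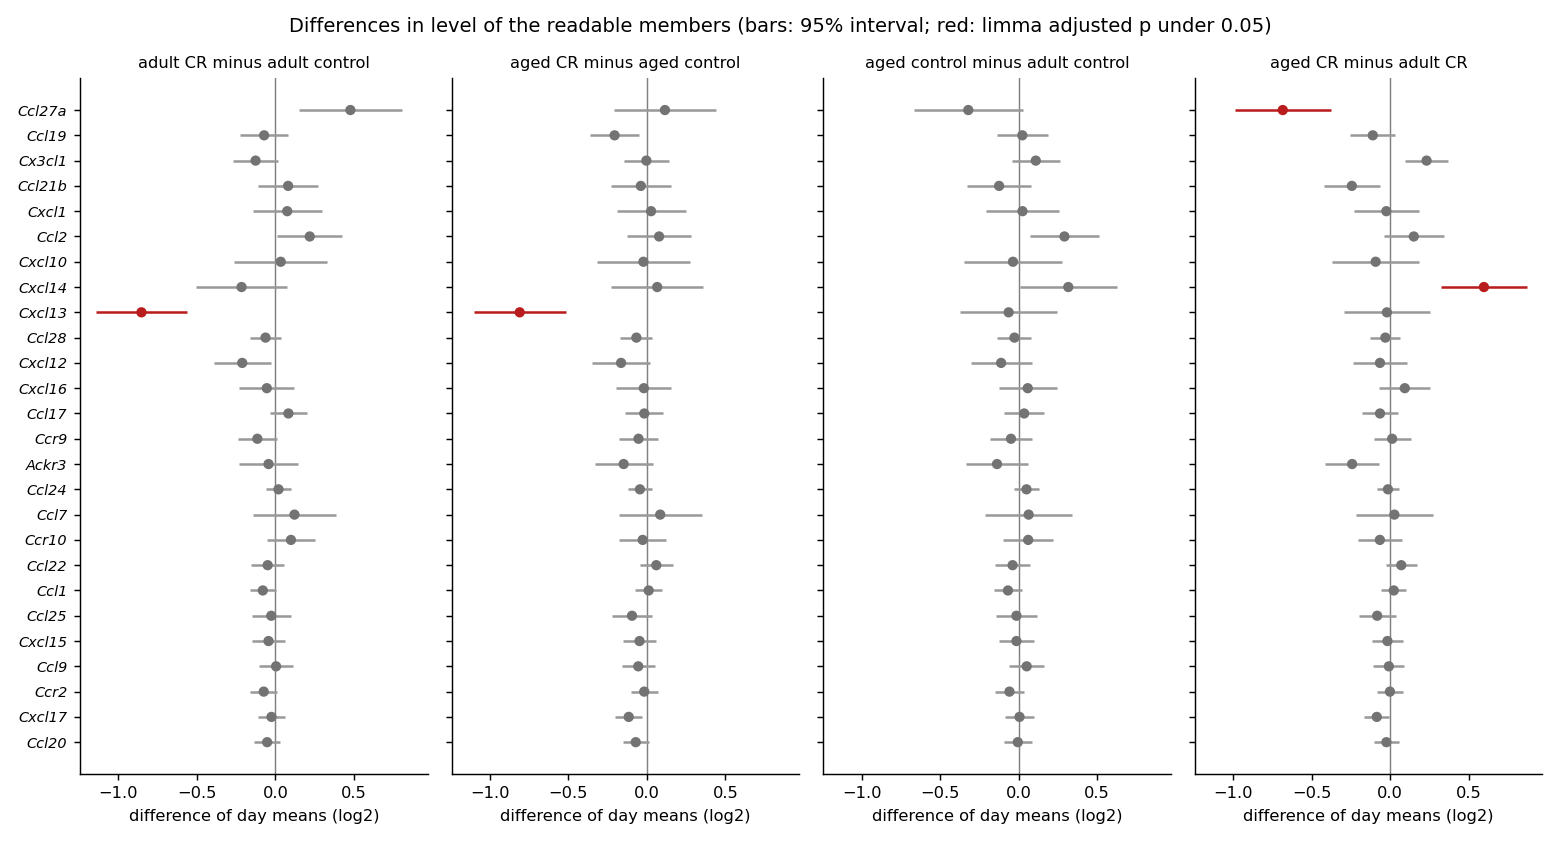
Differences of day means on the log2 scale (x axis) for the 26 readable members (y axis) in the 4 comparisons of arms, with 95% intervals as bars and limma adjusted p under 0.05 in red. Cxcl13 stands alone on the left in both diet comparisons (-0.85 and -0.81), and Ccl27a (-0.68) and Cxcl14 (0.60) are the 2 called between aged and adult CR.

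Cxcl14, a ligand expressed in many resting tissues, was higher in aged than in adult mice under CR. Its lowest, median and highest values were 5.11, 6.70 and 8.80 in adult CR and 6.18, 7.38 and 8.22 in aged CR. Under control diet they were 5.67, 7.03 and 8.37 in adults and 6.23, 7.13 and 8.42 in aged mice. The ranges overlapped, with 23 of 26 aged CR arrays above the median of adult CR. The difference of day means under CR was 0.60 ± 0.139 (SE, n = 26 and 32), 1.51-fold higher (limma adjusted p = 0.00909), and the mean was higher at all 6 times. A second probe set of Cxcl14 (mean 5.99) gave 0.54 ± 0.0982 (limma adjusted p = 0.000451).

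Under the control diet, where the ages of the adult arrays are tagged as aged, Cxcl14 differed by 0.32 ± 0.158 with age (limma adjusted p = 0.477), higher at 5 of 6 times. The 2 age effects differed by 0.28, with a 95% interval from -0.13 to 0.69 (limma adjusted p = 0.791), so they were not shown to differ. Markers of Schwann cells and pericytes moved in the same direction. Under CR, 3 of 7 Schwann markers (Mbp, Ncmap and Sox10) and 2 of 7 pericyte and smooth muscle markers (Acta2 and Myh11) were higher in aged mice, and under the control diet 5 of 7 Schwann markers were. These genes were named after their values were seen. The mean of the Schwann list ran from 7.83 to 9.11 in adult CR and from 8.16 to 9.30 in aged CR, and that of the pericyte list from 8.18 to 9.45 and from 8.61 to 9.71. Within groups, Cxcl14 and the Schwann list had r = 0.314 and rho = 0.354 over 103 arrays (permutation adjusted p = 0.0694 and 0.0374), and r = 0.316 without the 2 farthest arrays. Their part in the Cxcl14 difference was not tested.

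Age changed 2 of the 26 members under CR (7.69% against 1.94% of all genes) and 0 under the control diet (0.422% of all genes), where limma gave an unadjusted p under 0.05 for 2 members, Ccl2 and Cxcl14. Of all genes, 1.48% were higher and 0.456% lower in aged mice under CR, and 0.329% higher and 0.0928% lower under the control diet. The median difference over the members was -0.02 under CR and -0.01 under the control diet, beside -0.00 and 0.01 over all genes. Ccl2, the main monocyte attractant, differed by 0.29 ± 0.112 with age under the control diet, higher in aged mice at all 6 times, and did not pass the correction (limma adjusted p = 0.287). Cx3cl1, the membrane-bound fractalkine, was close to the threshold under CR at 0.23 ± 0.0685 (limma adjusted p = 0.051), and it passed under 5 of 10 alternative settings. A second, dimmer probe set of Cx3cl1 (mean 5.92) gave 0.03 ± 0.074 (limma adjusted p = 0.89). Ackr3 differed by -0.24 ± 0.0884 (limma adjusted p = 0.139) and Ccl21b by -0.24 ± 0.0909 (limma adjusted p = 0.149) under CR, both lower in aged mice at all 6 times. No member was called in the test of whether the age effects differ between diets (0% of all genes by limma), and none of the 26 had an unadjusted p under 0.05 there, against 908 of 11853 genes.

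The other members of high signal or with a called test are given here as the lowest, median and highest array of each arm. Among the homeostatic and membrane-bound ligands, Ccl19 read 9.17, 9.65 and 9.88 in adults on control diet and 8.84, 9.58 and 10.11 in those under CR, and 8.94, 9.63 and 10.30 and 8.67, 9.40 and 9.82 in the aged arms in that order. For Cx3cl1 the adult values were 8.29, 8.75 and 9.09 under control diet and 7.48, 8.74 and 9.07 under CR, and the aged ones 8.54, 8.85 and 9.23 and 8.39, 8.92 and 9.42. Ccl21b read 7.27, 8.13 and 8.54 in adults on control diet and 7.41, 8.09 and 8.91 in those under CR, and 6.70, 7.87 and 8.89 and 7.04, 7.85 and 8.60 in the aged arms in that order. The arms overlapped for each of these 3 genes. For Cxcl12 the adult values were 6.00, 6.69 and 8.25 under control diet and 5.42, 6.58 and 7.32 under CR, and the aged ones 6.01, 6.60 and 7.15 and 5.68, 6.45 and 6.83. Ccl28 read 6.35, 6.60 and 7.19 in adults on control diet and 6.16, 6.59 and 7.04 in those under CR, and 6.21, 6.63 and 7.06 and 6.19, 6.52 and 6.92 in the aged arms in that order. For Cxcl16 the adult values were 5.95, 6.56 and 7.09 under control diet and 6.01, 6.52 and 7.03 under CR, and the aged ones 5.93, 6.62 and 7.23 and 5.88, 6.69 and 7.11. Their ranges overlapped as well, and no level difference was called.

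Among the inflammatory ligands, Cxcl1 read 6.83, 7.91 and 8.71 in adults on control diet and 6.74, 7.95 and 8.78 in those under CR, and 7.06, 7.87 and 8.48 and 6.18, 7.94 and 8.62 in the aged arms in that order. For Ccl2 the adult values were 6.80, 7.62 and 8.42 under control diet and 6.55, 7.82 and 9.29 under CR, and the aged ones 7.28, 7.83 and 8.56 and 7.27, 7.98 and 8.68. Ccl7 read 4.68, 5.13 and 6.12 in adults on control diet and 4.16, 5.26 and 6.47 in those under CR, and 4.20, 5.24 and 6.36 and 4.37, 5.20 and 6.60 in the aged arms in that order. For these attractants of neutrophils and monocytes the ranges overlapped between arms. For Cxcl10 the adult values were 6.58, 7.17 and 7.93 under control diet and 6.21, 7.14 and 9.23 under CR, and the aged ones 6.21, 7.12 and 8.88 and 6.28, 7.13 and 8.21. Ccl17 read 5.34, 6.11 and 6.60 in adults on control diet and 5.76, 6.18 and 6.47 in those under CR, and 5.79, 6.12 and 6.41 and 5.14, 6.16 and 6.75 in the aged arms in that order. For Ccl24 the adult values were 5.15, 5.28 and 5.65 under control diet and 5.05, 5.37 and 5.68 under CR, and the aged ones 5.13, 5.42 and 5.66 and 5.05, 5.33 and 5.73. The Cxcl10 range was widest in adult CR. Ccr2 read 4.43, 4.69 and 5.25 in adults on control diet and 4.42, 4.62 and 4.92 in those under CR, and 4.41, 4.66 and 4.99 and 4.20, 4.61 and 5.20 in the aged arms in that order. The receptor thus lay within about 1 unit in every arm, close to the filter.

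Ccl27a, a ligand of Ccr10 best known from skin, had the largest spread within groups of 1 arm and time among the readable members, with a residual SD of 0.57. Its lowest, median and highest values were 8.32, 9.44 and 11.18 in adults on control diet and 8.21, 10.05 and 11.32 in those under CR, and 8.32, 9.27 and 10.29 and 8.17, 9.28 and 10.55 in the aged arms in that order. The SD over an arm was 0.87 and 0.96 in the adult arms and 0.52 and 0.49 in the aged arms. Under CR, 25 of 26 aged arrays lay below the adult median. The difference of day means was -0.68 ± 0.155 (SE, n = 26 and 32), 1.61-fold lower in aged mice (limma adjusted p = 0.00783), and the aged mean was lower at all 6 times. Under the control diet it was -0.32 ± 0.177 (limma adjusted p = 0.549), lower at 4 of 6 times.

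The 4 probe sets annotated to Ccl27a disagreed on this difference. The chosen one and a second (mean 7.90) gave -0.68 and -0.73 ± 0.158 between aged and adult CR (limma adjusted p = 0.00463 for the second, adjusted over 27100 probe sets). The other two, with means of 7.90 and 7.16, gave 0.03 ± 0.105 and -0.12 ± 0.0813 (limma adjusted p = 0.946 and 0.529). The level of Ccl27a with age is therefore a reading of some of its probes and not of all. All 4 probe sets passed the rhythm test over the mean of the arms. Ccl27a lies on chromosome 4, where its span overlaps that of Il11ra1 in RefSeq (GRCm38.p6) and where near-identical gene copies exist, so its probe sets, like those of Ccl21b and Ccl19 on the same chromosome, may read more than 1 gene.

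**Figure D3:**
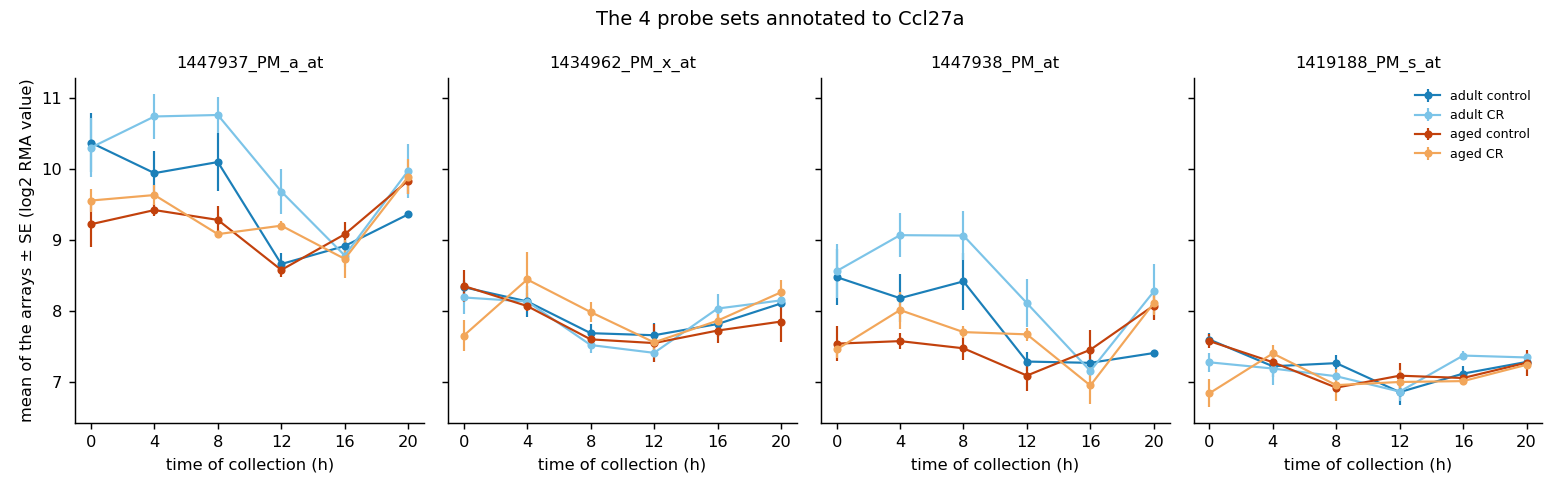
Mean of the arrays of each arm and time, with SE bars (none for adult control T20, which has 1 array), against time of collection in hours for the 4 probe sets annotated to Ccl27a (log2 RMA value, arms in colour). In the leftmost panel and in the panel to the right of the middle the day mean of adult CR lies above that of aged CR (aged minus adult -0.68 and -0.73), while in the other two panels these arms differ by 0.03 and -0.12.

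Ccl27a also varied with its chromosome 4 neighbours within groups. Over 103 arrays, with the mean of each arm and time removed, Ccl21b had the highest correlation with Ccl27a of all 11852 other genes (r = 0.540, rho = 0.535, r = 0.550 without the 2 farthest arrays). Ccl19 ranked 4 in that order (r = 0.422, rho = 0.423, r = 0.406 without them). Ccl21b and Ccl19 had r = 0.554 with each other (rho = 0.561, r = 0.542 without them). The permutation p adjusted over 325 pairs of members was 0.00162, 0.00511 and 0.00162 for the 3 Pearson values. The next member in the order for Ccl27a was its receptor Ccr10 at r = 0.099, which ranked 2208.

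Daily rhythms were tested with limma's F test of the 24 h cosine and sine in each arm. The amplitude, on the log2 scale, is how far the fitted curve rises above its day mean, and the peak is the fitted time in hours after T0. In the adult control arm 3 of 26 members were rhythmic (11.5% against 10.6% of all genes), in adult CR 8 (30.8% against 22.4%), in aged control 3 (11.5% against 10.8%) and in aged CR 6 (23.1% against 16.5%). Over the mean of the 4 arms 12 members were rhythmic, 46.2% against 55.2% of all genes. The members' share was close to that of all genes in both control arms. It lay above that share in both CR arms and below it over the mean of the arms. No test of the family as a whole was made. Without the filter, 13 of the 25 dim members were also called over the mean of the arms, among 8872 of 17097 genes in all. They included the receptors Cxcr3 (limma adjusted p = 8.14e-07) and Cxcr5 (0.000758) and the ligands Ccl11 (2.41e-06) and Xcl1 (0.00011), named after their values were seen, and none of the dim members was called in a level comparison. Among the readable members, which were 22 ligands and 4 receptors, those called rhythmic were ligands with 1 exception, the receptor Ccr2. With so few receptors readable, this is no result about ligands against receptors. The Ccr2 calls were read from its brightest probe set, and its other probe sets lay below the filter.

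Cxcl1, which attracts neutrophils, was the only member called in all 4 arms. Its means in adult CR were 7.70 at T0, 8.10 at T4, 8.38 at T8, 7.86 at T12, 8.05 at T16 and 7.20 at T20. In aged CR they were 7.89, 7.88, 8.25, 8.04, 8.03 and 6.95. The lowest mean lay at T20 in both CR arms and at T0 in both control arms (7.21 in adult and 7.44 in aged control), and the highest at T8 in adult CR, aged control and aged CR, while adult control had 8.14 at both T8 and T16. The fitted amplitudes were close to each other, at 0.40 ± 0.123 and 0.42 ± 0.101 (SE) in adults under control diet and CR and 0.40 ± 0.114 and 0.42 ± 0.111 in aged mice, and in the same order the peaks lay at 11.4 ± 1.18, 8.15 ± 0.893, 9.06 ± 1.10 and 8.55 ± 0.988 h. The limma adjusted p-values were 0.049, 0.00491, 0.0374 and 0.014. Over the mean of the arms the peak was 1.71-fold above the trough at 9.25 ± 0.537 h (limma adjusted p = 1.62e-07).

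The Cxcl1 call in adult control lay at the threshold and was lost in 46 of 92 fits that left out 1 array of a group with up to 5 arrays (limma adjusted p up to 0.157), and that in aged control in 10 (up to 0.0744). In both CR arms it was lost without the T20 arrays (limma adjusted p = 0.236 in adults and 0.595 in aged mice), and in aged CR it was also lost without T20 replicate 4 (0.0894) and in a fit of that arm alone (0.053). The call in aged control was further lost with time as 6 levels (limma adjusted p = 0.0728), and that in adult control without the filter (0.0541) and with array weights (0.075). Genes of the immediate early response, which cells switch on within minutes of a stimulus, varied with Cxcl1. Within groups of the same arm and time, Cxcl1 and the mean of 18 immediate early genes had r = 0.553 and rho = 0.544 over 103 arrays (permutation adjusted p = 0.00156 for each, from p = 1e-05, the smallest the permutations can give) and r = 0.467 without the 2 farthest arrays. Cxcl1 and a list of 14 NF-kB targets and cytokines had r = 0.442 and rho = 0.351 (adjusted p = 0.00499 and 0.0374), and r = 0.396 without the 2 farthest. Of the immediate early genes 15 of 18 were rhythmic over the mean of the arms, against 55.2% of all genes. The part of that response in the Cxcl1 rhythm was not tested.

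**Figure D4:**
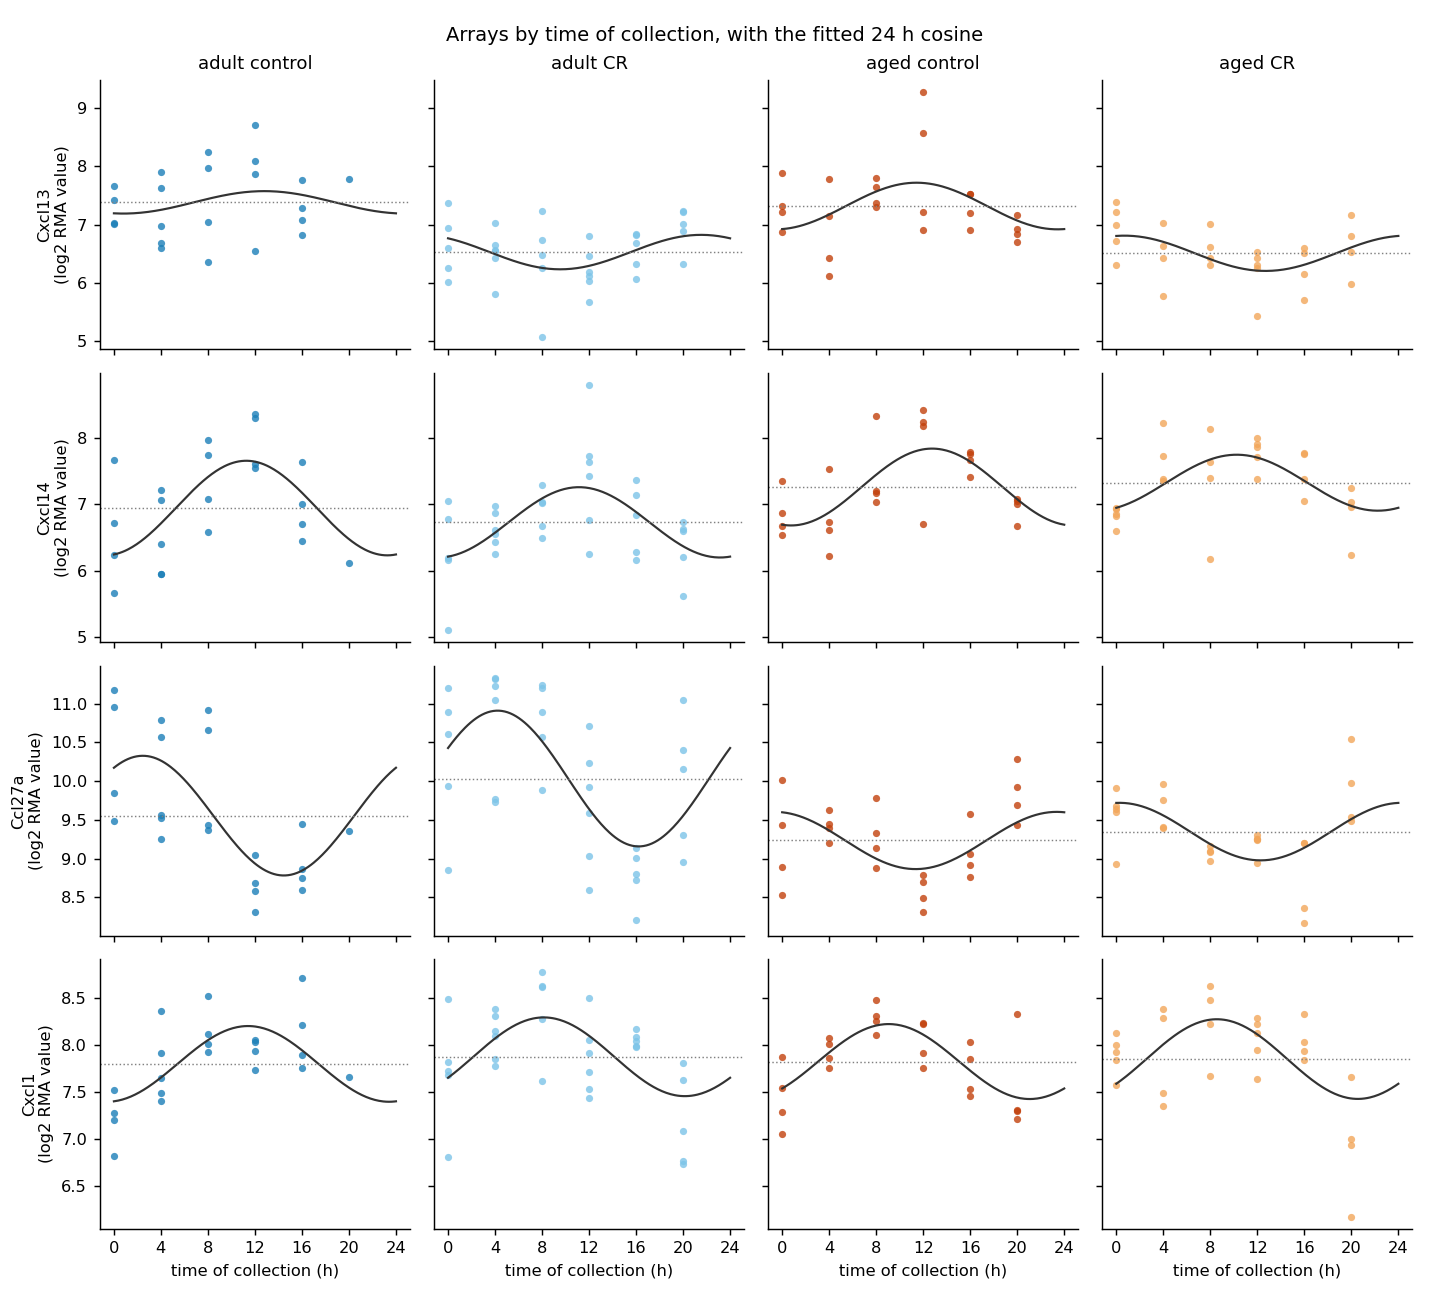
Arrays of each arm (columns) by time of collection in hours (x axis) for Cxcl13, Cxcl14, Ccl27a and Cxcl1 (rows, log2 RMA value), with the fitted 24 h cosine as a line and its day mean dotted. Cxcl13 is lower in both CR columns (day means 6.53 and 6.51 against 7.38 and 7.32), Cxcl1 keeps an amplitude of 0.40 to 0.42 in every arm, and Ccl27a swings most in the adult columns (0.77 and 0.88).

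Cxcl14 had the largest amplitude over the mean of the arms, 0.55 ± 0.0735, a 2.13-fold swing with its peak at 11.4 ± 0.526 h (limma adjusted p = 9.72e-09). The median amplitude of the 6537 genes rhythmic in that test was 0.16. Its means in adult control were 6.57 at T0, 6.52 at T4, 7.34 at T8, 7.95 at T12 and 6.95 at T16, with 6.12 in the only T20 array. The highest mean lay at T12 in all 4 arms (7.95, 7.43, 7.89 and 7.78). The rhythm was called in adult control (amplitude 0.71 ± 0.164, limma adjusted p = 0.00542), adult CR (0.53 ± 0.131, 0.00642) and aged control (0.58 ± 0.152, 0.0201). In aged CR the amplitude was 0.42 ± 0.143 (limma adjusted p = 0.0739). In aged control it was lost without T12 replicate 2 (limma adjusted p = 0.0522) and with time as 6 levels (0.0757). Amplitudes were not shown to differ between arms, as the tests of rhythm differences show.

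Cxcl13 contrasts with Cxcl14 in having no call in any arm and none over the mean of the arms (amplitude 0.03 ± 0.0737, limma adjusted p = 0.939). In adult and aged mice its amplitudes were 0.19 ± 0.152 and 0.40 ± 0.152 under control diet and 0.30 ± 0.133 and 0.30 ± 0.141 under CR. The fitted peaks lay at 12.8 ± 3.47 and 11.4 ± 1.45 h in the control arms and at 21.5 ± 1.68 and 0.693 ± 1.91 h under CR. Waves with peaks this far apart cancel in the mean of the arms, so the amplitude of 0.03 does not show that each arm was flat. The test of that difference in aged mice had an unadjusted p of 0.00499 and did not pass the correction (limma adjusted p = 0.166).

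Ccl27a was rhythmic in both adult arms, with amplitudes of 0.77 ± 0.165 (limma adjusted p = 0.00288) under control diet and 0.88 ± 0.146 (limma adjusted p = 2.53e-05) under CR, a 2.91-fold and a 3.37-fold swing. Its means in adult CR were 10.30 at T0, 10.74 at T4, 10.76 at T8, 9.68 at T12, 8.78 at T16 and 9.97 at T20. At T16 the adult CR arrays ran from 8.21 to 9.14 and at T4 from 9.73 to 11.32, with no overlap between these times. In the aged arms the amplitudes were 0.37 ± 0.170 and 0.37 ± 0.157 and were not called (limma adjusted p = 0.261 and 0.187). The rhythm difference between aged and adult CR had an unadjusted p of 0.00493 and a limma adjusted p of 0.3, so the rhythm was not shown to differ with age.

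The monocyte attractants Ccl2 and Ccl7, both ligands of Ccr2, both peaked between 6 and 12 h. Over the mean of the arms Ccl2 peaked at 7.23 ± 0.685 h (amplitude 0.28 ± 0.0544, limma adjusted p = 4.77e-05) and Ccl7 at 8.55 ± 0.678 h (0.37 ± 0.0694, 3.77e-05). Ccl7 was called in both CR arms, where its means rose from 4.58 at T0 to 5.73 at T4 in adults and from 4.53 to 5.91 in aged mice, with amplitudes of 0.48 ± 0.121 and 0.48 ± 0.133 (limma adjusted p = 0.00697 and 0.0209). The arrays of these 2 times met at 5.26 in adults (4.16 to 5.26 at T0, 5.26 to 6.33 at T4) and did not overlap in aged mice (4.37 to 4.78 and 5.53 to 6.44). In aged CR the Ccl7 call was lost without T8 replicate 4 (limma adjusted p = 0.0728). Ccl2 was called in adult CR (amplitude 0.36 ± 0.0937, limma adjusted p = 0.00892), and that call was lost without the T20 arrays and in a fit of that arm alone.

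Ccl2 and Ccl7 also varied together within groups (r = 0.415, rho = 0.386, r = 0.401 without the 2 farthest arrays, permutation adjusted p = 0.0039 and 0.0182 over 325 pairs). Their receptor Ccr2 is carried by monocytes and lies near the filter at 4.66. It was called in aged CR, where its means were 4.49 at T0, 4.85 at T4, 4.89 at T8, 4.58 at T12, 4.57 at T16 and 4.55 at T20 (amplitude 0.18 ± 0.0445, limma adjusted p = 0.0069). The call was lost in a fit of that arm alone. It rests on the brightest Ccr2 probe set, as the others (means 3.74, 3.52 and 3.22) lay below the filter. The rhythm of Ccr2 differed most between aged CR and aged control of all members, and did not pass the correction (limma adjusted p = 0.0857).

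Cxcl12 was called in adult CR (amplitude 0.36 ± 0.0827, peak 10.6 ± 0.88 h, limma adjusted p = 0.00327), where its mean rose from 5.91 at T0 to 7.04 at T8 with no overlap between the arrays of these times (5.42 to 6.33 and 6.70 to 7.32). In adult control it lay just over the threshold (0.34 ± 0.104, limma adjusted p = 0.051). In the aged arms the amplitudes were 0.18 ± 0.0951 and 0.11 ± 0.0892, neither called. The other 2 probe sets of Cxcl12 did not pass over the mean of the arms (limma adjusted p = 0.234 and 0.333), while the chosen one did (5.31e-05), so the Cxcl12 rhythm rests on 1 of 3 probe sets.

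Cxcl10, the interferon-induced attractant of activated T cells, was called in adult CR with a peak at 2.48 ± 0.867 h (amplitude 0.60 ± 0.131, limma adjusted p = 0.00177). Its values there ran from 6.71 to 8.46 at T0 and from 6.21 to 7.16 at T12, which overlap. Ccl21b was called in both aged arms, at 15.97 ± 1.02 h in aged control (0.37 ± 0.0993, limma adjusted p = 0.0234) and 12.2 ± 1.08 h in aged CR (0.35 ± 0.092, 0.0142). Its means were lowest at T0 in both, at 7.35 and 7.34. The call in aged control was lost without T16 replicate 1 or without T16 replicate 3 (limma adjusted p up to 0.0743) and in a fit of that arm alone.

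The remaining rhythmic members had small amplitudes. Ccl24 was called in adult CR (0.12 ± 0.0344, peak 0.514 ± 1.12 h, limma adjusted p = 0.0219; 0.0547 without adult CR T0 replicate 5 and 0.0922 with time as 6 levels). Cx3cl1 was called in aged CR (0.25 ± 0.0708, peak 21.96 ± 1.12 h, limma adjusted p = 0.0239; 0.0527 without aged CR T0 replicate 4), and that call was lost with the mean of its 2 probe sets (0.269) and with added quantile normalization (0.0581). Ccl17 was called in aged CR (0.20 ± 0.0581, limma adjusted p = 0.0332), and lost in 5 of 92 fits without 1 array, namely without T0 replicate 1, 3 or 5 or T8 replicate 1 or 4 (limma adjusted p up to 0.183). It was also lost with array weights (limma adjusted p = 0.111) and in a fit of that arm alone (0.157). Ccl28 was called over the mean of the arms alone (0.07 ± 0.0258, limma adjusted p = 0.0404) and lost in 15 of 92 such fits (up to 0.0712), without the T20 arrays (0.0742), with added quantile normalization (0.111) and with the replicate block by time and number (0.055). The 12 members rhythmic over the mean of the arms peaked between 6 and 12 h in 5 cases (Ccl2, Ccl7, Cxcl1, Cxcl12 and Cxcl14) and between 0 and 6 h in 4 (Ccl24, Ccl27a, Ccr2 and Cxcl10). Ccl17 and Ccl21b peaked between 12 and 18 h and Ccl28 between 18 and 24 h. Of all 6537 rhythmic genes, 22% peaked between 6 and 12 h and 27.4% between 0 and 6 h. A further 21.7% peaked between 12 and 18 h and 28.9% between 18 and 24 h.

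**Figure D5:**
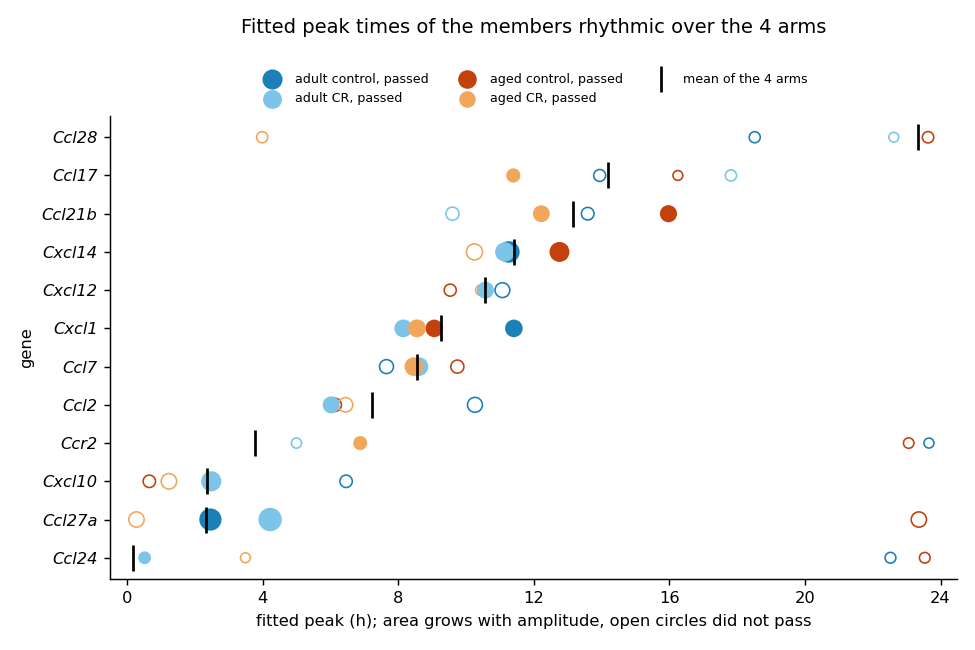
Fitted peak in hours (x axis) of the 12 members rhythmic over the mean of the 4 arms (y axis), by arm in colour; filled circles passed limma's adjusted p in that arm, open circles did not, area grows with amplitude and black ticks mark the peak over the mean of the arms. Cxcl1, Ccl2, Ccl7, Cxcl12 and Cxcl14 lie between 6.02 and 12.8 h in the arms that passed, and Cxcl10 and Ccl27a between 2.46 and 4.22 h.

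No member's rhythm differed between arms in the tests of the difference itself. Limma called 0 of 26 members with age under control diet (0% of all genes), under CR (0.00844%) and with diet in adults (0.0253%) or aged mice (0.388%). At an unadjusted p under 0.05 there were 2, 5, 2 and 4 members in these tests. A rhythm called in one arm and not in another is therefore not shown to differ between them.

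Other genes of the chemokine system, a list of G protein subunits, arrestins, regulators and further receptors and ligands outside the family names, gave 18 readable genes of 24. None was called in any of the 4 level comparisons. Of the 18, 13 were rhythmic over the mean of the arms, against 55.2% of all genes, among them the brightest probe sets of the list, those of Sdc4 (also in the muscle stem cell list), Gnai2 and Gnb1. Among 14 readable NF-kB targets and cytokines, Tnip1 and Nfkb2, both induced by NF-kB, were higher under CR in adults (0.29 ± 0.0754 and 0.21 ± 0.0578, limma adjusted p = 0.0328 and 0.0395) and in aged mice (0.34 ± 0.0756 and 0.22 ± 0.0579, limma adjusted p = 0.00471 and 0.0225). These 2 were named after their values were seen, and the median difference of the list was 0.04 in adults and -0.01 in aged mice. Ccl2 had r = 0.377 and rho = 0.325 with the mean of this list within groups (permutation adjusted p = 0.0211 and 0.073, r = 0.345 without the 2 farthest arrays).

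In all, 312 relations between a member and a list were computed within groups, and 13 passed for Pearson's r, 12 of them positive. The neutrophil list, of which only S100a9 (5.52), Mmp9 and Camp were readable, gave 4 of them: Ccl28 (r = 0.503, rho = 0.502, adjusted p = 0.00156 for each, r = 0.481 without the 2 farthest arrays), Cxcl17 (r = 0.457, rho = 0.446, r = 0.455 without them), Cxcl15 (r = 0.404, rho = 0.397, r = 0.323) and Cxcl13 (r = 0.391, rho = 0.385, r = 0.345). Ccl17 varied with the lymphocyte list (r = 0.462, rho = 0.413, adjusted p = 0.00499 and 0.0164, r = 0.431 without the 2 farthest). Ccr9 was the only member with a negative relation, to the muscle stem cell list (r = -0.403, rho = -0.329, adjusted p = 0.0211 and 0.0897, r = -0.328). The immediate early and NF-kB lists gave 2 passing relations each, and the chemokine system, macrophage and pericyte lists 1 each. Not every one of the 13 is described here. The arrays share their labelling and normalization, and no comparison of arms rests on these values.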

How the data were processed

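RNA of muscle stem cells was measured on Affymetrix arrays. The values are those the authors deposited, and RMA is named in the submitters' processing notes. They run from 1.19 to 12.8, and the log2 scale is inferred from these deposited values. No label names an array batch. The number of arrays sets the precision.

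The annotation gave 28898 of 45141 probe sets 1 gene symbol, 551 several and 15692 none, and 28689 matched RefSeq by Entrez number. After removing probe sets whose mean lay below log2 4.50, the 40th percentile, the brightest one of each gene was kept, leaving 11853 genes. One limma 3.58.1 model (R 4.3.3) fitted each arm a level and a 24 h wave (cosine and sine terms) over all arrays, and p-values were Benjamini-Hochberg adjusted over all genes at 0.05. The scripts were tested on simulated data. Within-group correlations used residuals from arm and time means over 103 arrays (the group with 1 array left out) and 100000 permutations within groups, two-sided. The plan had named all arrays.

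The members and lists were chosen with earlier results of these data known. By rule, every member is named, arm values are given for the 12 of highest mean and those called in a test, and other genes come from the lists, at most the 3 brightest of each, with exceptions said where named. The alternatives were the filter, the mean of a gene's probe sets, fits of only the arms compared, time as 6 levels, omission of T20, array weights, added quantile normalization, 2 replicate blocks and omission of single arrays.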

Additional observations from a re-analysis of the deposited data

Results flagged for a closer look

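For the 4 members called in a level comparison or rhythmic in all arms (Cxcl13, Cxcl14, Ccl27a and Cxcl1), each group of 1 arm and time with 4 to 10 arrays was searched for an array far from the others. Of 92 such groups, 5 held one, where chance gives about 1 in 20. Cxcl14 read 8.33 in aged control T8 replicate 1, against a group median of 7.19, and 6.71 in aged control T12 replicate 4, against a median of 8.21. Cxcl1 read 8.33 in aged control T20 replicate 2, where the group median was 7.30. Cxcl13 read 5.43 in aged CR T12 replicate 4 (group median 6.31) and Ccl27a 8.95 in aged CR T12 replicate 1 (group median 9.25). The 4 level calls kept their side of the threshold without each of these arrays.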

How the results depend on the processing

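Over 10 alternatives and the 14 counts of members called, 139 of 140 stayed within 1.5 times. The exception was the rhythm over the mean of the 4 arms without a filter on dim probe sets, where 25 of 51 members were called, 13 of them dim. The calls of Cxcl13 (both ages), Cxcl14 and Ccl27a held in 10 of 10 alternatives and in the 92 fits that each left out 1 array; the 12 arrays of adult CR T4 and T12, the groups of 6, were not left out in turn. The adjusted p for Ccl27a ran from 0.00268 to 0.0365 over the alternatives, and its difference from -0.69 to -0.38, the smaller with the mean of its probe sets. Cxcl13 ran from -0.91 to -0.54 in adults and from -0.87 to -0.46 in aged mice, and Cxcl14 from 0.57 to 0.66.

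Leaving out single arrays gave 8 to 10 rhythmic members in adult CR, 2 to 4 in adult control, 5 to 7 in aged CR, 2 to 3 in aged control, 11 to 14 over the mean of the arms, and 2 to 3 level calls with age under CR; the other counts did not move. For values of single members under the other alternatives, 512 kept their side of the threshold, 37 gained a call and 19 lost one. No level difference changed direction, while the rhythm tests carry no sign and could not be scored for direction. Counts over all genes moved by over 1.5 times mostly without the T20 arrays: 836 against 1276 rhythmic genes in aged control, 118 against 230 level calls with age under CR, 145 against 272 with diet in aged mice, 30 against 50 with age under control diet (also 30 without the filter and 28 in a fit of those arms alone), and 22 against 46 rhythm differences with diet in aged mice (102 with time as 6 levels, 16 in those arms alone, 73 with the replicate block by age, time and number). Rhythm differences with diet in adults were 3, against 6 with weighted arrays and 8 where time had 6 levels, and with age under CR 0 to 2. The cause was not tested.

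Replicate numbers are shared between arms, but no label says they mark a shared mouse or day. Over the 4 comparisons 4 to 6 of 20 to 26 same-numbered pairs correlated above 0.1. The medians ran from -0.00564 to 0.046 and the highest value was 0.386. Pairs of unlike numbers were not set beside them, so whether the numbers pair the arrays was not tested. With a replicate block the correlation within blocks was 0.0491 or 0.0373. The block by age, time and number left 2 members called with age under CR and 1 in each diet comparison, and the block by time and number gave 3 and 1, the third being Cx3cl1. The 25 dim members entered no level or rhythm count above other than those without the filter.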
